A study of Arabidopsis thaliana with 12 samples.

Results

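Jasmonate is made from plastid lipids in a chain of enzyme steps, and the expression of 10 genes of this chain was examined in leaves of *kaku4-2* and WT plants. The genes were taken by their locus identifiers. They are *LOX2* (AT3G45140), *LOX3* (AT1G17420), *LOX4* (AT1G72520), *AOS* (AT5G42650), *AOC1* (AT3G25760), *AOC2* (AT3G25770), *AOC3* (AT3G25780), *AOC4* (AT1G13280), *OPR3* (AT2G06050) and *JAR1* (AT2G46370). These are 10 of the 23069 genes in the deposited table, and all 10 passed the filter on low values and were among the 20638 genes tested. The *kaku4-2* plants carry a homozygous T-DNA insertion in *KAKU4*, which encodes a component of the plant nuclear lamina, in the Col-0 background. The insertion is described as a knockdown, and a single insertion line was used, so effects of *KAKU4* and of anything else in that line cannot be told apart. The WT plants were Col-0. RNA-seq was carried out on 3 *kaku4-2* and 3 WT libraries from rosette leaves at an age of 30 days, which the study counts as separate biological replicates. Of the 12 libraries of the series, the 6 ChIP-seq libraries were not analysed here. Plant hormones, jasmonic acid among them, were also measured in such leaves by the study, so the comparison asks whether the transcripts of the enzymes that make jasmonate differed between the genotypes.

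In the plastid, lipoxygenases add oxygen to a fatty acid released from the membrane, allene oxide synthase (*AOS*) turns the hydroperoxide into an unstable epoxide, and allene oxide cyclase (*AOC*) closes the ring to form OPDA. OPDA moves to the peroxisome, where it is reduced by *OPR3* and shortened by rounds of beta-oxidation to jasmonic acid, and *JAR1* joins jasmonic acid to isoleucine. The conjugate is the form that the receptor COI1 binds, which leads to the destruction of JAZ repressors and frees MYC transcription factors, and many genes of jasmonate synthesis are themselves known targets of this signal in leaves.

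*KAKU4* itself had an FPKM (fragments scaled by transcript length and library size, on the scale of the deposited table) of 0.402, 0.433 and 0.313 in the *kaku4-2* libraries, against 2.69, 3.61 and 2.51 in the WT libraries. The values go with the labels of all 6 libraries. *kaku4-2* replicate 3 stood apart from the other libraries. Its FPKM summed to 829805, and its correlations with the other 5 over all genes were 0.895 to 0.936. The other *kaku4-2* libraries summed to 1245643 and 1285627, and the WT libraries to 1298744, 1530891 and 1767459. Each *kaku4-2* sum thus lay below each WT sum, and the part of this offset in the fold changes was not tested. Values of *kaku4-2* replicate 3 were low for short and high for long transcripts. Counts of called genes are therefore also given without that library and with the trend of length removed where they differ. The number of fragments behind a value could not be read reliably from the spacing of low values, of which 6.43% to 19.3% in a library came to within 0.03 of a whole number of fragments, a window that chance alone fills with 6%. The study lists similar numbers of mapped reads for all 6 libraries, *kaku4-2* replicate 3 included. The number of fragments behind a single value is therefore taken as unknown, but not the reads of the libraries.

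Levels of the 10 genes spanned a wide range. Averaged over the 6 libraries, *AOC2* (957 FPKM) and *AOS* (871 FPKM) ranked 213 and 238 among the 23069 genes, and *AOC1* (518 FPKM) ranked 407. *LOX2* had 207 FPKM, *AOC3* 84.3 FPKM, *AOC4* 80.7 FPKM and *OPR3* 52.0 FPKM. *JAR1* (17.5 FPKM), *LOX3* (7.66 FPKM) and *LOX4* (4.63 FPKM) were the lowest. The middle steps of the chain, *AOS* and *AOC*, were thus the most abundant. Over the libraries, the ranges of the neighbours *AOC2* and *AOS*, *AOS* and *AOC1*, *AOC3* and *AOC4*, *AOC4* and *OPR3*, and *LOX3* and *LOX4* overlapped. *LOX2* lay below *AOC1* and above *AOC3* in every library, and *JAR1* lay below *OPR3* and above *LOX3*.

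**Figure D1:**
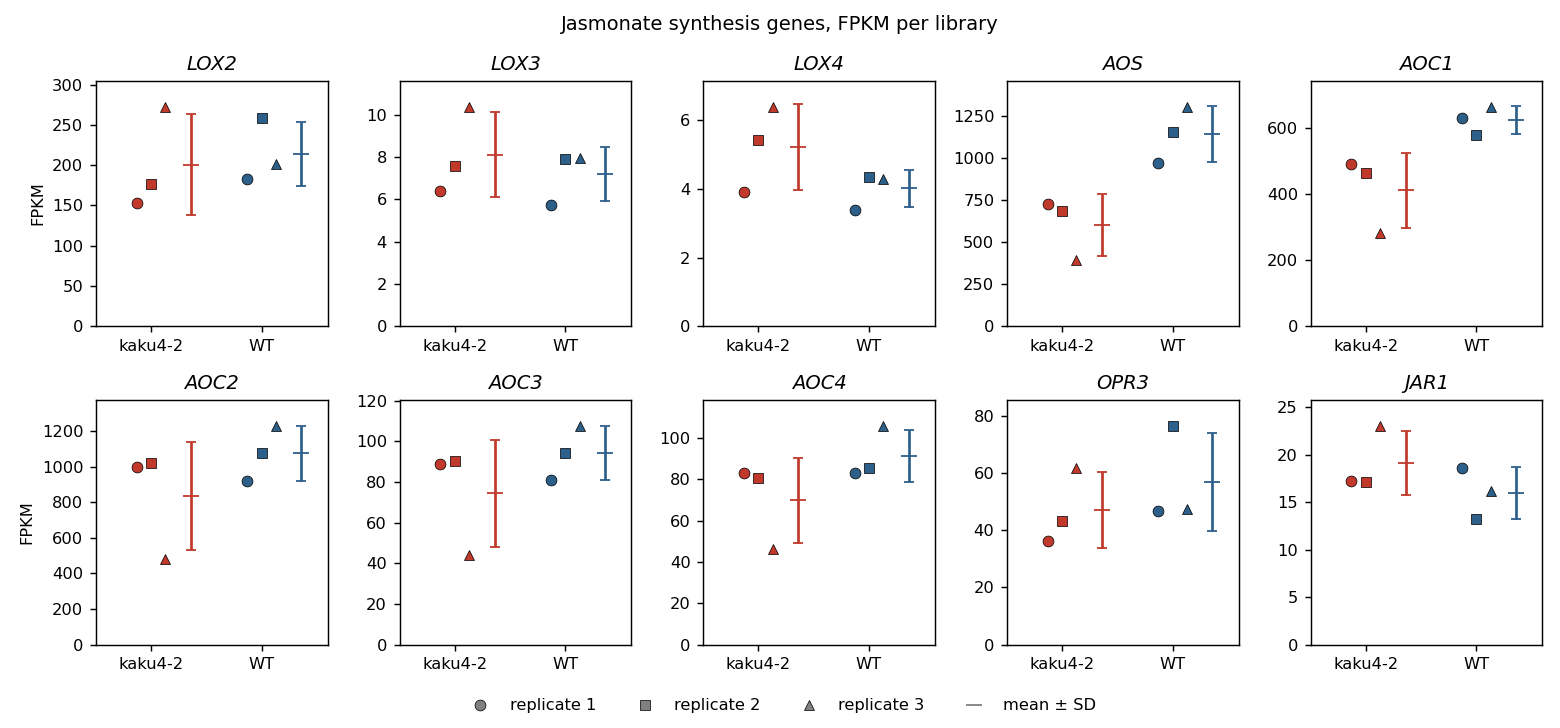
FPKM of the 10 jasmonate synthesis genes in each *kaku4-2* and WT library. Each panel has its own linear axis from 0, markers stand for replicates, and the bar to the right of each group is the mean ± SD (n = 3). *AOS* and *AOC1* lie lower in every *kaku4-2* library than in any WT library, the *kaku4-2* values of *AOC4* end just under those of WT, and the other genes overlap.

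The genotypes were compared with limma on log2(FPKM + 0.1), a scale that understates the fold change of weakly expressed genes. A gene was called with the cutoff of the study, a log2 ratio of the median FPKM of at least 0.6 in size together with an unadjusted P-value of at most 0.05. Log2 fold changes are limma differences of means unless the ratio of medians is named, and the 2 can differ. Of the 10 genes, 1 fell in the *kaku4-2* mutant (*AOS*), 0 rose, and 9 did not pass. With the length trend removed 2 fell (*AOS* and *LOX2*), where 5.5% of all genes tested fell, and this difference was not tested. Without *kaku4-2* replicate 3 again only *AOS* fell, where 6.66% of all genes tested fell. With all 6 libraries and no such change, 6.64% of all genes tested were called downward and 5.02% upward, so a share of 1 in 10 is near the background. With a limma P adjusted by Benjamini-Hochberg over all genes and held to 0.05, 0 of the 10 genes were called, and 1 had an unadjusted P-value under 0.05. The background of that stricter call was 0.237% downward and 0.242% upward. The log2 fold change was negative for 7 genes and positive for 3, with a median of -0.34, beside -0.02 over all genes tested. The median was -0.12 without *kaku4-2* replicate 3 and -0.27 with the length trend removed. All 3 *kaku4-2* libraries lay below all 3 WT libraries for 3 genes (*AOS*, *AOC1* and *AOC4*) and above them for 0, where 15% and 7.92% of all genes tested did so. In whole leaves, fewer cells that express a gene and less RNA of it per cell cannot be told apart.

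The lipoxygenases start the chain. *LOX2* encodes the main plastid lipoxygenase behind the jasmonate of wounded leaves, and it lies on the forward strand of chromosome 3 (16525245 to 16529352, TAIR10.1 assembly, 7 exons). Its FPKM was 153, 176 and 272 in *kaku4-2* replicates 1, 2 and 3, against 182, 258 and 201 in the WT replicates. The genotypes overlapped, and *kaku4-2* held both the lowest values (replicates 1 and 2) and the highest (replicate 3). The log2 fold change of *LOX2* was -0.12 (standard error 0.31, 95% confidence interval -0.78 to 0.54, limma with Benjamini-Hochberg adjusted p = 0.839). Its sign was not stable. It was 0.049 without *kaku4-2* replicate 1, 0.022 without WT replicate 2 and 0.35 after quantile normalization. With the length trend removed, *LOX2* was called downward, as its log2 ratio of the medians was -0.65. The limma log2 fold change was then -0.59 (unadjusted P = 0.0188 and adjusted p = 0.209 from limma).

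*LOX3* and *LOX4* encode the related plastid lipoxygenases known from male fertility in *Arabidopsis* flowers. *LOX3* had 6.41, 7.58 and 10.4 FPKM in the *kaku4-2* libraries, against 5.72, 7.91 and 7.97 FPKM in WT. *LOX4* had 3.90, 5.43 and 6.39 FPKM in the *kaku4-2* libraries, against 3.40, 4.36 and 4.29 FPKM in WT. For *LOX4*, *kaku4-2* replicates 2 and 3 lay above every WT library and replicate 1 lay among them. The log2 fold changes were 0.16 (standard error 0.31) for *LOX3* and 0.36 (standard error 0.33) for *LOX4*, with limma adjusted p (Benjamini-Hochberg) of 0.795 and 0.554. With the length trend removed they were -0.31 for *LOX3* and -0.11 for *LOX4*, and *LOX3* was also negative without *kaku4-2* replicate 3 (-0.030) and with array weights (-0.035), so no direction can be given for them. The coding sequences of *LOX3* and *LOX4* share 80.7% of aligned bases and those of *LOX2* and either of them at most 59.4%. *LOX2* held 93.1% to 94.2% of the summed FPKM of the 3 lipoxygenase genes in the *kaku4-2* libraries, against 94.3% to 95.5% in the WT libraries.

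*AOS* is encoded by a single gene in *Arabidopsis*, with 1 exon, on the reverse strand of chromosome 5 (17097564 to 17099595). It had 726, 686 and 391 FPKM in *kaku4-2* replicates 1, 2 and 3, against 970, 1152 and 1300 FPKM in the WT replicates. The lowest WT library was above the highest *kaku4-2* library, and *kaku4-2* replicate 3 was the lowest of all. The mean was 601 ± 183 FPKM in *kaku4-2* and 1140 ± 165 FPKM in WT (SD, n = 3 each), so that *kaku4-2* stood at 52.7% of WT. The log2 fold change of *AOS* was -0.97 (standard error 0.35, 95% confidence interval -1.71 to -0.22), with a limma P of 0.0150 and a Benjamini-Hochberg adjusted p of 0.263. An exact permutation test gave a two-sided p of 0.1, the smallest that 3 against 3 libraries allow.

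*AOS* was lower in *kaku4-2* under all 17 alternatives, with log2 fold changes between -1.13 and -0.42, and it passed the cutoff in 13 of them. Without *kaku4-2* replicate 3 it was still called, at -0.68 (limma with Benjamini-Hochberg adjusted p = 0.141). Among the alternatives in which it did not pass were those without WT replicate 2 (-0.95, limma adjusted p = 0.629) or WT replicate 3 (-0.87, limma adjusted p = 0.834), where the unadjusted P exceeded 0.05. With the replicate number as a block it did not pass either (-0.97, unadjusted P = 0.0704 and adjusted p = 0.555 from limma). After quantile normalization its log2 fold change was -0.42, and its log2 ratio of the medians was -0.47, under the size of the cutoff.

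Allene oxide cyclase is encoded by 4 genes, of which *AOC1*, *AOC2* and *AOC3* stand in a row on the forward strand of chromosome 3 (9403779 to 9405338, 9406669 to 9408071 and 9409160 to 9411090), with 1330 and 1088 bases between them. *AOC4* lies on chromosome 1 (4547388 to 4548894). Each has 2 exons. *AOC1* and *AOC2* are the most alike, with 90.3% identical bases in their aligned coding sequences, and the other pairs share 72.8% to 82.7%. None of the 100-base windows of an *AOC* transcript occurs in another *AOC* transcript, though how reads from shorter identical stretches were divided between *AOC1* and *AOC2* is not given in the sources used here.

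*AOC1* had 489, 462 and 282 FPKM in the *kaku4-2* libraries, against 631, 580 and 662 FPKM in the WT libraries. The genotypes did not overlap (exact two-sided permutation p = 0.1), and the mean of *kaku4-2* was 65.8% of that of WT. Its log2 fold change was -0.64 (standard error 0.32, 95% confidence interval -1.33 to 0.04, unadjusted P = 0.0640 and limma with Benjamini-Hochberg adjusted p = 0.343). Its log2 ratio of the medians was -0.45, under the size of the cutoff, so *AOC1* met neither part of the cutoff. It passed the cutoff under 0 of the 17 alternatives, although its log2 fold change was negative in all of them. With the length trend removed and with array weights, only the ratio of the medians (-0.29 and -0.45) fell short. With the fold from the mean, and without *kaku4-2* replicate 1 or 2, only the P-value failed.

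*AOC2*, the most abundant of the 10 genes, had 1002, 1021 and 483 FPKM in the *kaku4-2* libraries, against 921, 1081 and 1232 FPKM in the WT libraries. Replicates 1 and 2 of *kaku4-2* lay within the range of WT, and replicate 3 was at a far lower level. *AOC3* had the same profile at a lower level, with 88.7, 90.3 and 44.0 FPKM in *kaku4-2*, against 81.0, 94.0 and 108 FPKM in WT. *AOC4* had 82.9, 80.8 and 46.1 FPKM in *kaku4-2*, against 83.0, 85.4 and 106 FPKM in WT, and its genotypes were separated by only 0.134 FPKM. The log2 fold changes were -0.44 (standard error 0.37) for *AOC2*, -0.40 (standard error 0.32) for *AOC3* and -0.43 (standard error 0.30) for *AOC4*, with limma adjusted p (Benjamini-Hochberg) between 0.444 and 0.520. Without *kaku4-2* replicate 3 they were -0.081, -0.064 and -0.15, and *AOC2* was at 0.11 after quantile normalization. The 4 genes summed gave 1663, 1654 and 855 FPKM in *kaku4-2*, against 1716, 1840 and 2108 FPKM in WT, and a log2 fold change of -0.50 (standard error 0.38, limma adjusted p = 0.477).

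*OPR3*, the peroxisomal OPDA reductase, lies on the reverse strand of chromosome 2 (2359114 to 2362375, 5 exons). Its FPKM was 36.1, 43.3 and 61.8 in the *kaku4-2* libraries, against 46.8, 76.6 and 47.3 in the WT libraries, and the genotypes overlapped. The log2 fold change of *OPR3* was -0.27 (standard error 0.31, 95% confidence interval -0.93 to 0.39, limma with Benjamini-Hochberg adjusted p = 0.631), and it was 0.076 after quantile normalization. *JAR1*, the enzyme that makes the isoleucine conjugate, lies on chromosome 2 (19033586 to 19036683) and had 17.2, 17.1 and 23.0 FPKM in *kaku4-2*, against 18.6, 13.2 and 16.1 FPKM in WT. Its genotypes overlapped, at a log2 fold change of 0.26 (standard error 0.28, 95% confidence interval -0.35 to 0.86, limma with Benjamini-Hochberg adjusted p = 0.618).

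**Figure D2:**
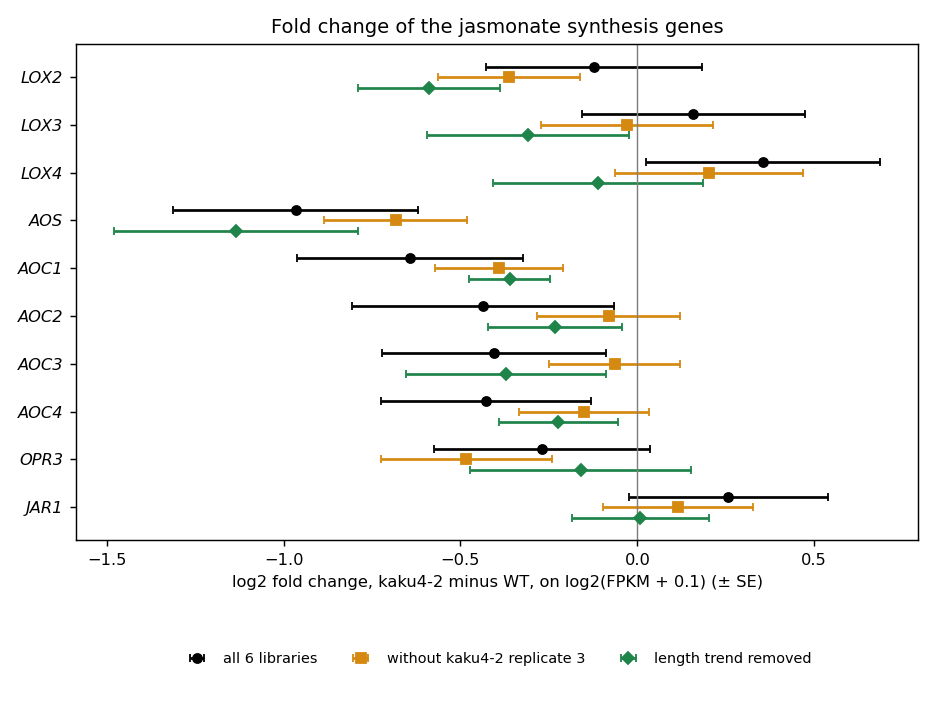
Log2 fold change (*kaku4-2* minus WT, ± SE) of the 10 genes on log2(FPKM + 0.1), with all 6 libraries, without *kaku4-2* replicate 3 and with the length trend removed. *AOS* is at -0.97, -0.68 and -1.13, *AOC2* moves to -0.081 without *kaku4-2* replicate 3, and *LOX2* moves to -0.59 with the length trend removed.

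Over all genes tested, the difference between *kaku4-2* replicate 3 and the average of the other *kaku4-2* libraries followed transcript length, from a median of -1.04 in the bin of the shortest transcripts (median 569 bases) to 1.24 in the bin of the longest (4330 bases). *LOX2*, *LOX3* and *LOX4*, with transcripts of 3046 to 3186 bases, were 0.73, 0.56 and 0.46 higher in that replicate, where the median of their bin was 1.14. *AOC1*, with 1191 bases, was at -0.76 beside a bin median of -0.57. *AOS* went against the trend. Its transcript has 2032 bases, the median of its bin was 0.41, and it was at -0.85 in that replicate. *AOC3* (1660 bases) was at -1.02 beside a bin median of -0.11. *OPR3* (1563 bases) deviated the other way, at 0.64 beside a bin median of -0.23. The log2 fold change between the genotypes was below the median of genes of like length for 9 of the 10 genes, *JAR1* being the exception. The median difference from the bin was -0.26. By definition, as many genes lie below the median of their bin as above it. With *kaku4-2* replicate 3 left out, *LOX4* (0.20) was also above its bin median (0.068), and *AOC2* (-0.081) was close to its own (-0.079). The *LOX* and *AOC1* values of that library thus moved in the direction of genes of like length, and those of *AOS* and *OPR3* moved against it.

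**Figure D3:**
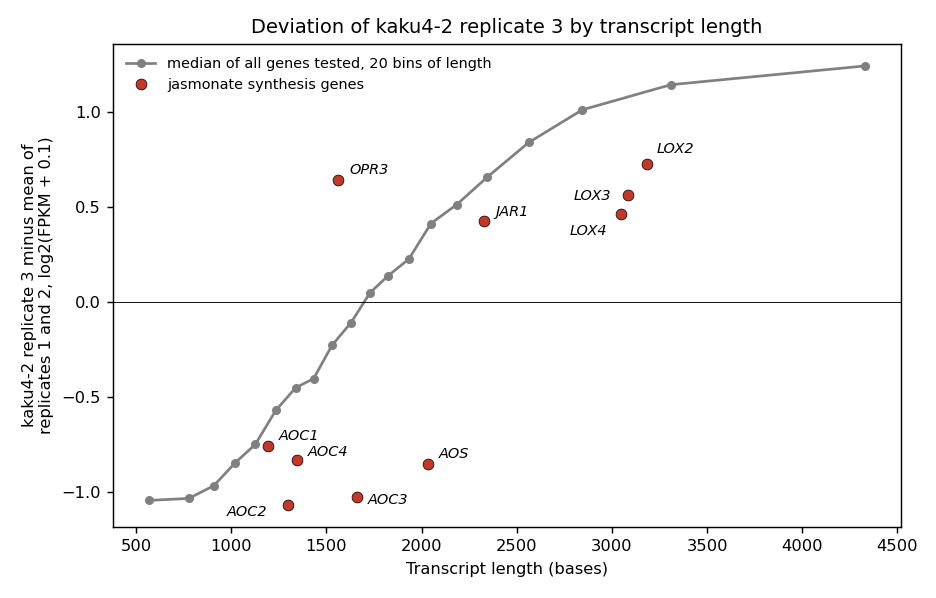
*kaku4-2* replicate 3 minus the average of replicates 1 and 2, on log2(FPKM + 0.1), against transcript length in bases. The line joins the medians of all genes tested in 20 bins of length, and the points are the 10 jasmonate synthesis genes. *AOS* at -0.85 and *AOC3* at -1.02 lie far below the line, and *OPR3* at 0.64 lies above it.

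Ratios between the genes within a library do not depend on the scale of that library. The length trend of *kaku4-2* replicate 3, however, does not cancel between transcripts of unlike length. Its bin medians were 1.14 for *LOX2*, 0.41 for *AOS* and -0.45 for *AOC2* and *AOC4*. The ratios were chosen after the values of the genes were seen and are given with no test. The ratio of *AOS* to *AOC2* was 0.724, 0.672 and 0.809 in the *kaku4-2* libraries, against 1.05, 1.07 and 1.06 in the WT libraries. The ratio of *AOS* to *AOC4* was 8.76, 8.49 and 8.49 in *kaku4-2*, against 11.7, 13.5 and 12.3 in WT. In both ratios each *kaku4-2* library, replicate 3 included, lay below each WT library. *AOS* was thus lower in *kaku4-2* also relative to *AOC2* and *AOC4* of the same library. The ratio of *LOX2* to *AOS* overlapped, at 0.211, 0.257 and 0.695 in *kaku4-2*, against 0.188, 0.224 and 0.155 in WT. That of *LOX2* to *LOX3* overlapped as well. How often ratios between other genes separate the genotypes was not determined. The ratio of *AOC1* to *AOC2* was 0.488, 0.453 and 0.583 in *kaku4-2*, against 0.685, 0.536 and 0.538 in WT, and overlapped. That of *AOC1* to *AOC4* was 5.90, 5.72 and 6.11 in *kaku4-2*, against 7.60, 6.79 and 6.25 in WT, and did not overlap. *AOC2* and *AOC3*, next to each other on the chromosome, kept a nearly fixed ratio of 11.3, 11.3 and 11.0 in *kaku4-2*, against 11.4, 11.5 and 11.4 in WT. *AOC1* took 29.4%, 27.9% and 32.9% of the summed *AOC* FPKM in *kaku4-2*, against 36.8%, 31.5% and 31.4% in WT.

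**Figure D4:**
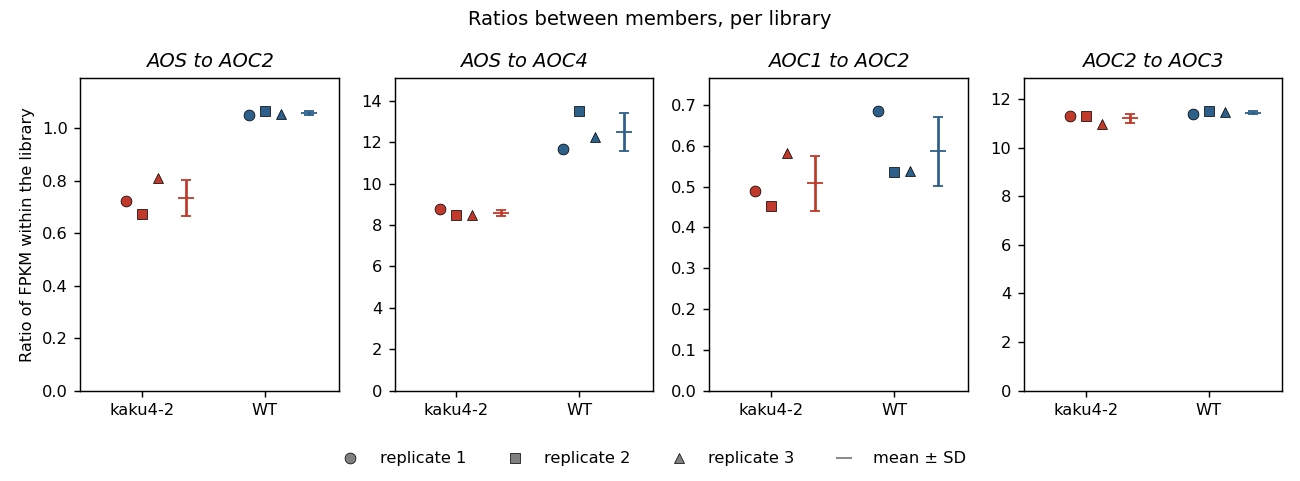
Ratios of FPKM between jasmonate synthesis genes within each library, on linear axes from 0. Markers stand for replicates and the bar to the right of each group is the mean ± SD (n = 3). The ratio of *AOS* to *AOC2* is 0.672 to 0.809 in *kaku4-2* and 1.05 to 1.07 in WT, while that of *AOC2* to *AOC3* is 11.0 to 11.5 in all 6 libraries.

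The 10 genes fell into profiles over the 6 libraries, described here by Pearson's r of log2(FPKM + 0.1), in which *kaku4-2* replicate 3 weighs heavily. *OPR3* followed *LOX2* (r = 0.94, n = 6, and 0.98 over the 5 libraries without *kaku4-2* replicate 3), and both were high in WT replicate 2 and *kaku4-2* replicate 3. *AOC1* followed *AOS* (r = 0.97, n = 6, and 0.91 over the 5 libraries). *AOC2* followed *AOS* less closely (r = 0.89, n = 6, and 0.62 over the 5 libraries). *LOX2* and *AOS* were not alike (r = -0.20, n = 6). Among the 16495 genes ranked, *OPR3* ranked 290 in likeness to *LOX2*, and *AOC1* ranked 1062 in likeness to *AOS*. The genes most like *LOX2* were *ELF5* and *LHCA1*, an antenna protein of photosystem I, both at r = 0.998, and AT2G35490 at 0.997. Those most like *AOS* were AT1G52190, AT1G61890 and *VHA-E3*, a subunit of the vacuolar proton pump, at r = 0.999 each. With 6 libraries, of which 1 stands apart, many genes reach such values.

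The G-box CACGTG and the variant CACATG are elements that MYC2 and its relatives are known to bind. Both were searched on both strands in the 300 bases before the annotated transcript start. CACGTG was found in the window of 1 of the 10 genes (*AOS*) and in 7.99% of 21919 promoters, and CACATG in the windows of 4 (*LOX2*, *LOX3*, *AOC4* and *JAR1*) and in 13.3% of promoters. The matches are printed to show where they stand, 5′ to 3′ on the strand of the gene, with the match in capitals (CATGTG is CACATG read on the other strand). The sequences are from the RefSeq TAIR10.1 assembly.
AOS, chr5:17099596-17099625, reverse strand: aaatgaaggaaaaaagagtcaaagCACGTG
LOX2, chr3:16525136-16525165, forward strand: cctcctatgcatCACATGcaatatcgggta
LOX3, chr1:5977246-5977275, forward strand: ctttacttgaaaCATGTGttgagaattcac
AOC4, chr1:4547298-4547327, forward strand: tagaaattttccCACATGttccctcaagtc
JAR1, chr2:19033436-19033465, forward strand: aaaaaagtaatcCACATGcgattgttttgg
The G-box of *AOS* ends at the base before its annotated start. A G-box in 1 of 10 windows is near the share of all promoters. *LOX4*, *AOC1*, *AOC2*, *AOC3* and *OPR3* held neither element in this window. A match describes the letters only and shows no binding.

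The other genes of the pathway were described by 6 lists with 69 genes tested, of which 3 rose and 11 fell with the cutoff of the study, where 5.02% and 6.64% of all genes tested did so. The upward share of the lists is near that background. The downward share is above it, but the lists were chosen with earlier results of these data known. The same background applies to the counts of each list below, except under an alternative. With the length trend removed, 1396 of 20638 genes tested rose and 5.5% fell. Without *kaku4-2* replicate 3, 956 of 20555 genes tested rose and 6.66% fell. The counts depended on single libraries. Without *kaku4-2* replicate 1 or 2, 7 or 8 genes rose, where 1339 of 20643 and 1258 of 20639 genes tested did so. Without WT replicate 1, 6 rose, where 1512 of 20627 genes tested did so. Without WT replicate 2, 6 fell, where 4.32% of all genes tested fell. Without WT replicate 3, 1 rose and 4 fell, where 546 of 20653 genes tested rose and 3.26% fell. On precursor supply and the remaining steps of synthesis, 20 of 22 genes were tested, and 1 rose (*PLIP2*) and 1 fell (*DAD1*). The median log2 fold change of this list was 0.42, with 18 genes higher and 2 lower, but it was 0.11 without *kaku4-2* replicate 3 and 0.07 with the length trend removed. *PLIP2*, a plastid lipase that releases fatty acids, had 1.02, 0.661 and 2.83 FPKM in *kaku4-2*, against 0.443, 0.530 and 0.263 FPKM in WT, and it was not called without *kaku4-2* replicate 3. *DAD1*, a lipase known from flowers, was listed at 0, 0 and 0.0577 FPKM in *kaku4-2*, against 0.141, 0.269 and 0.350 FPKM in WT, so it was barely detected in these leaves.

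Enzymes that remove jasmonate include *CYP94B1*, which oxidizes the isoleucine conjugate, and *JOX2*, which hydroxylates jasmonic acid. Both fell, and they were the 2 genes past the cutoff among the 11 tested on turnover and modification, where 0 rose. *CYP94B1* had 0.927, 1.18 and 1.34 FPKM in *kaku4-2*, against 3.32, 3.60 and 2.98 FPKM in WT. Its log2 fold change was -1.46 (standard error 0.37, limma with Benjamini-Hochberg adjusted p = 0.118), and it was called under all 17 alternatives. *JOX2* had 140, 139 and 92.9 FPKM in *kaku4-2*, against 185, 231 and 248.5 FPKM in WT. Its log2 fold change was -0.85 (standard error 0.29), and it passed in 15 of 17 alternatives. The list median was -0.21. When *kaku4-2* replicate 3 was left out, 3 genes of the list fell, the third being *JMT*, which methylates jasmonic acid. With the length trend removed the same 3 fell and *JOX4*, a relative of *JOX2*, rose. *JMT* and *JOX4* are named after their values were seen.

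Among 10 genes of perception and transcription, *MYC4* fell and 0 rose, with a list median of -0.12. *MYC4*, a transcription factor of the jasmonate response, had 37.1, 41.1 and 21.6 FPKM in *kaku4-2*, against 56.4, 50.3 and 59.1 FPKM in WT, a log2 fold change of -0.78 (standard error 0.30). Its relative *MYC2* had 61.1, 69.0 and 74.0 FPKM in *kaku4-2*, against 95.1, 108 and 101 FPKM in WT, at -0.58 (standard error 0.26, limma adjusted p = 0.320). It passed the P-value of the cutoff but not its fold, with a log2 ratio of the medians of -0.54. Without *kaku4-2* replicate 3, and also with the length trend removed, *MYC2* was called and *MYC4* was not. The receptor gene *COI1* had 18.7, 18.7 and 14.4 FPKM in *kaku4-2*, against 22.3, 20.6 and 22.9 FPKM in WT, and did not pass (-0.35, standard error 0.27).

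Of the 12 *JAZ* genes, which encode the repressors, 2 fell (*JAZ7* and *JAZ10*) and 0 rose, with a median of -0.25. Over all genes tested the shares were 6.64% and 5.02%. All *kaku4-2* libraries lay below all WT libraries for 5 of them and above for 1, against 15% and 7.92% of all genes tested. The 1 above was *JAZ1*, named after its values were seen, at 0.90 (standard error 0.34). Its log2 ratio of the medians, 0.45, was under the cutoff. *JAZ7* had 10.4, 10.8 and 5.05 FPKM in *kaku4-2*, against 19.0, 16.9 and 18.8 FPKM in WT. *JAZ10* had 62.7, 61.6 and 30.8 FPKM in *kaku4-2*, against 90.3, 102 and 121 FPKM in WT. The log2 fold changes were -1.13 (standard error 0.33) and -1.07 (standard error 0.32), with limma adjusted p (Benjamini-Hochberg) of 0.183 for *JAZ7* and 0.187 for *JAZ10*. With the length trend removed *JAZ7* was at -0.55 and was not called, so 1 gene fell, and the median of the list was -0.14. The median was -0.13 without *kaku4-2* replicate 3.

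Of 10 genes known as markers of the jasmonate response, 4 fell (*CLH1*, *THI2.1*, *PDF1.2a* and *PDF1.2b*) and 0 rose, with a median of -0.39. Of all genes tested, 6.64% fell and 5.02% rose. *CLH1*, a chlorophyllase, had 1227, 1250 and 685 FPKM in *kaku4-2*, against 1773, 1981 and 2315 FPKM in WT (log2 fold change -0.98, standard error 0.37). *THI2.1*, a thionin, had 34.0, 33.6 and 15.8 FPKM in *kaku4-2*, against 45.7, 51.4 and 54.8 FPKM in WT (-0.94, standard error 0.32). The defensin *PDF1.2a* had 7866, 8572 and 3784 FPKM in *kaku4-2*, against 11272, 14457 and 18297 FPKM in WT (-1.18, standard error 0.51), and *PDF1.2b* moved by -1.33 (standard error 0.48). *PDF1.2a* and *PDF1.2b* are close copies, so their values are uncertain as reads may be divided between them. *THI2.1* and *PDF1.2a* were not called with the length trend removed, where 2 genes fell and 2 rose. *VSP2* (-0.23, standard error 0.29) and *CORI3* (-0.55, standard error 0.31), which mark the wound branch of the response, did not pass. *VSP2* was at 0.25 after quantile normalization. Without *kaku4-2* replicate 3, 5 genes of this list fell, *CORI3* among them, and 2 rose. The 2 that rose in each case, *ORA59* and *ERF1*, encode transcription factors of the shared ethylene and jasmonate branch, and are named after their values were seen.

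Of 6 genes listed under other oxylipin branches, 2 rose (*DOX1* and *LOX1*) and 1 fell (*HPL1*), and the median was 0.32. The study itself describes *LOX1* as involved in jasmonate synthesis. *DOX1*, an alpha-dioxygenase, had 8.86, 11.5 and 19.0 FPKM in *kaku4-2*, against 1.00, 0.504 and 0.826 FPKM in WT (log2 fold change 3.88, standard error 0.39), and had the only adjusted p under 0.05 among the 69 genes (0.000565, limma with Benjamini-Hochberg). *LOX1*, a lipoxygenase that oxygenates another position of the fatty acid and does not feed *AOS*, had 1.76, 1.59 and 3.17 FPKM in *kaku4-2*, against 0.852, 1.11 and 0.405 FPKM in WT (1.38, standard error 0.47). *HPL1*, the gene of hydroperoxide lyase, had 40.0, 42.6 and 26.0 FPKM in *kaku4-2*, against 74.4, 98.4 and 89.2 FPKM in WT (-1.29, standard error 0.28, limma with Benjamini-Hochberg adjusted p = 0.0693). *HPL1* was called under all 17 alternatives.

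**Figure D5:**
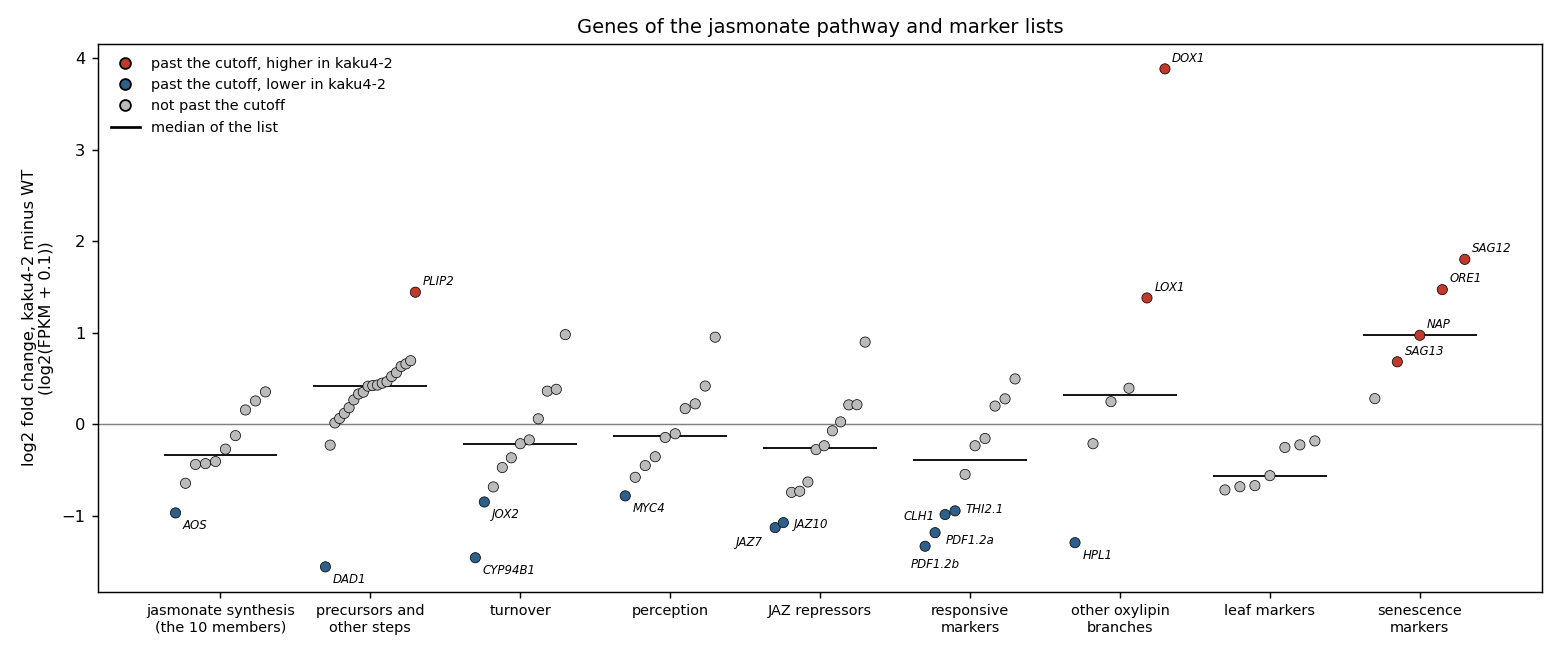
Log2 fold change (*kaku4-2* minus WT, on log2(FPKM + 0.1)) of each tested gene of the jasmonate lists and of the leaf and senescence markers. Each point is a gene, coloured by the cutoff of the study, and horizontal lines are list medians. The medians were -0.34 for the 10 synthesis genes, -0.39 for the responsive markers, -0.56 for the leaf markers and 0.97 for the senescence markers.

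Marker genes were checked beside these results. Of 7 genes of leaf mesophyll (*RBCS1A*, *LHCB2.1* and others), 0 passed the cutoff, but all 7 were lower in *kaku4-2*, with a median of -0.56, and their summed FPKM was 22121 to 24415 in *kaku4-2*, against 25946 to 34325 in WT. Without *kaku4-2* replicate 3, 3 of them fell (*LHCB2.1*, *PSAD1* and *RBCS2B*), and with the length trend removed 2 fell (*LHCB2.1* and *CA1*), 2 of the 7 were higher and the median was -0.16. Of 5 senescence markers, 4 rose, with *SAG12*, a protease of ageing leaves, at 21.1, 21.1 and 10.3 FPKM in *kaku4-2*, against 4.03, 4.79 and 5.35 FPKM in WT (log2 fold change 1.80, standard error 0.34, limma with Benjamini-Hochberg adjusted p = 0.0339). The sum of the 5 was 309 to 397 FPKM in *kaku4-2*, against 203 to 217 FPKM in WT. Of 5 vascular and 7 guard cell and epidermis markers, 0 passed, and the sums overlapped (34.6 to 59.9 FPKM in *kaku4-2*, against 38.1 to 52.6 FPKM in WT, and 73.7 to 127 FPKM, against 101 to 145 FPKM). Of 5 flower markers, 4 were under 1 FPKM in all libraries, and the seed storage genes *CRU1* and *CRU3* were at or near 0. *PYK10*, listed as a root marker, was at 42.1, 39.2 and 67.2 FPKM in *kaku4-2*, against 46.3, 29.4 and 29.8 FPKM in WT, so that marker was present in these leaf libraries. The part of leaf stage and of the mesophyll in the levels of *AOS* and the *AOC* genes was not tested.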

How the data were processed

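RNA-seq of 3 *kaku4-2* and 3 WT libraries was used. The authors aligned paired-end reads to TAIR10 with TopHat2 2.0.9 and deposited FPKM from Cufflinks. The Cufflinks version, annotation, use of strand and rule for keeping genes are not given in the sources used here. Names and transcript lengths came from the RefSeq annotation of TAIR10.1, where 22881 of 23069 loci were found. Genes averaging 0.1 FPKM or more entered a two-sided limma fit (limma 3.58.1, R 4.3.3) of log2(FPKM + 0.1) without covariates, whose prior variance depended on the mean level. The fit was tested on simulated data. FPKM are not counts, so no count model was used. The study names no program for its P-values.

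The genes named were the 10 members, list genes past the cutoff or an adjusted p of 0.05 (at most 6 per list), *COI1*, *MYC2*, *VSP2*, *CORI3*, *KAKU4*, *SAG12* and the 3 genes most like *LOX2* and *AOS* (averaging 1 FPKM or more). Members and lists were chosen with earlier results of these data known. Alternatives were other pseudocounts, filters, scalings, weights and prior variance, removal of the length trend (medians of 20 bins), fold from the mean, the replicate number as a block, and each library left out.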

Additional observations from a re-analysis of the deposited data

How the results depend on the processing

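The number of fragments behind a single value is unknown, so no limit of detection is given. The number of the 10 synthesis genes that fell, 1, was 0 after quantile normalization, 0 with the replicate block and 2 with the length trend removed (*AOS* and *LOX2*), and 0 to 1 with a library left out. Of all genes tested, 4.99%, 4.93% and 5.5% fell in the same order, and 3.26% to 12.9% with a library left out. At an adjusted p of 0.05, 3 were called with array weights (*AOS*, *LOX2* and *OPR3*), a fit that stopped before it converged. The share of all genes at that level with array weights was not determined, so this count has no background. Over all genes, 1037 rose and 1370 fell. With the length trend removed 1396 rose and 1135 fell, and array weights gave 2119 that rose and 1970 that fell. With a library left out 546 to 1512 rose and 673 to 2660 fell. In the 6 pathway lists, 3 genes rose and 11 fell. Median-ratio scaling gave 5 that rose, the fold from the mean 5, quantile normalization 6 and removal of the length trend 6, and 6 fell after quantile normalization. With a library left out, 1 to 8 rose and 4 to 13 fell, both fewest without WT replicate 3. The log2 fold change changed sign for *LOX2* (0.35 after quantile normalization, -0.36 to 0.049 with a library left out, above 0 without *kaku4-2* replicate 1 and, at 0.022, without WT replicate 2), *LOX3* (-0.31 with the length trend removed, -0.035 with array weights, -0.030 to 0.31 with a library left out, lowest without *kaku4-2* replicate 3), *LOX4* (-0.11 with the length trend removed) and, after quantile normalization, *AOC2* (0.11), *OPR3* (0.076) and *VSP2* (0.25). Same-numbered libraries of the genotypes did not deviate together (correlations -0.16, -0.03 and -0.41), so no pairing by number was seen. With 3 libraries per genotype, such correlations cannot exclude one. With the number as a replicate block 7 pathway genes fell. The cause of these changes was not tested.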
